A study of Mus musculus with 4 samples.

Results

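The genes described here are 38 lysosome genes, chosen by name: the Tfeb family of transcription factors, lysosomal membrane proteins including Cd68, cathepsins and other hydrolases, lipid-handling proteins, proton pump subunits and a few associated genes. All 38 had a row in both deposited tables, of 22440 rows in the first table and 11708 in the second. The cells were MMTV-Myc mouse mammary tumour cells, in which a Myc transgene is driven by the mouse mammary tumour virus promoter. Every group therefore carries that transgene. Polyadenylated RNA was sequenced in 4 libraries, 1 in each group. The bulk group (day 0, labelled wild type) grew with 2% fetal bovine serum and 10 µg/ml insulin. The mammosphere (MS) group (day 20, also labelled wild type) grew unattached in low-attachment plates with 20 ng/ml EGF, 20 ng/ml bFGF and Gem21 supplement, and was split into single cells every 4 days. The remaining groups carried lentiviral hairpins under 2 µg/ml puromycin. One had a control hairpin, with the genotype labelled wild type (shLuc) and the hairpin named shScr in another field. The other had the hairpin sh68 against the Polycomb gene Cbx8, with the genotype labelled Cbx8 knockdown. The sources used here do not say if the hairpin cultures were attached or spheres. No group had a replicate, so each difference below compares 2 libraries, and its biological spread is unknown.

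Lysosomes are acidic compartments in which proteins, glycans and lipids are broken down. A proton pump, the V-ATPase, keeps them acidic, soluble hydrolases do the digestion, and heavily glycosylated membrane proteins line the inner face. Tfeb and its relatives Tfe3 and Mitf bind a short promoter motif, named CLEAR after coordinated lysosomal expression and regulation, that is shared by many lysosomal genes. When nutrients are plentiful the kinase complex mTORC1 holds Tfeb in the cytoplasm. The core of CLEAR contains the E-box that Myc and its partners also bind. Cd68 belongs to the Lamp family of lysosomal glycoproteins and is widely used as a macrophage marker.

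RefSeq promoter windows (GRCm38.p6, 250 bases before to 50 after each annotated start) were found for 33 of the 38 genes, and are printed to show which members carry the motif of the Tfeb family. The CLEAR core TCACGTGA, which reads the same on both strands, was in the window of 6 of the 33 (18.2%), against 1.12% of all 27025 genes in the table. The shorter E-box CACGTG, contained in the CLEAR core, was in 11 of the 33 (33.3%), against 8.09% of all genes. In a list of other lysosomal genes, 5 of 32 (15.6%) held the CLEAR core. The 8 matches in the 6 members follow, each 30 bases long and read 5′ to 3′ on the gene's strand, with the core in capitals.
Ctsa, plus strand, chr2:164833749-164833778: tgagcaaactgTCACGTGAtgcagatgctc
Ctsa, plus strand, chr2:164833766-164833795: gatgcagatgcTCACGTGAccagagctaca
Ctsd, minus strand, chr7:142387908-142387937: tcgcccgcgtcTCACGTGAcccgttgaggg
Mcoln1, plus strand, chr8:3500462-3500491: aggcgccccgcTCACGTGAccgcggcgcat
Atp6v0d1, minus strand, chr8:105566050-105566079: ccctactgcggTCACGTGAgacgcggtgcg
Atp6v1a, minus strand, chr16:44139373-44139402: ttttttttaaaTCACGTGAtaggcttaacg
Gla, minus strand, chrX:134601215-134601244: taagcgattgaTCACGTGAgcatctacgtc
Gla, minus strand, chrX:134601182-134601211: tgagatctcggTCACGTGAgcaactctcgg
A match describes letters only. Lamp1 had 4 copies of the shorter CACGTG within 61 bases before its start, and none of them was a full CLEAR core.

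The Cd68 window held neither motif. Its 250 bases before the start are printed because Cd68 had the largest difference between mammospheres and bulk among the members that were higher in mammospheres. Capitals mark TGAGTCA, the letters bound by AP-1 factors, searched on both strands and chosen after the sequence had been read. This motif was in 5.95% of all windows by gene and in 4 of the 33 members, and it overlapped the E-box in Glb1.
Cd68, minus strand, chr11:69666171-69666420: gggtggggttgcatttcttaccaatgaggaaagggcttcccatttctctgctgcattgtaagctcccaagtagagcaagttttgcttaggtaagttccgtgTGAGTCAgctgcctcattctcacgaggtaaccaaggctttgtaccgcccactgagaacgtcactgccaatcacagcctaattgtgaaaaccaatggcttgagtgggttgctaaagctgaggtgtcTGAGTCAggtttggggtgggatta

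The files hold FPKM (fragments scaled to transcript length and to the size of the library) and no counts, so the depth of each library is unknown and no counting interval was computed. The tables came from separate runs, and ratios were taken only within a table. In the second table every row had been tested by the authors and none was at 0 in either library. Cbx8, the targeted gene, had 4.74 FPKM with the control hairpin and 1.23 FPKM with the Cbx8 hairpin, with q = 0.385 in the authors' deposited table. Myc, in a row that can hold transcripts of the transgene, was at 815 FPKM in bulk and 361 FPKM in mammospheres, and at 511 and 301 FPKM in the control and Cbx8 shRNA libraries. Of the epithelial markers, Krt8 and Krt18 were abundant in bulk cells (334 and 570 FPKM), whereas Epcam and Cdh1 were at 1.06 FPKM or less in all 4 libraries.

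Lysosome genes were mostly at similar levels in the mammosphere and bulk libraries, with a few large exceptions. Throughout, a log2 ratio has 1 FPKM added to each level, which understates differences of low genes, and a gene is called higher or lower when it reaches 2-fold on that scale. Of the 38 genes, 2 were higher in mammospheres, Cd68 and Atp6v1a, and 4 were lower, Ctsc, Ctsh, Sqstm1 and Gla. Among all 11630 rows with at least 1 FPKM in either library, 3.55% were higher and 17.2% lower. At 1.5-fold the members counted 2 higher and 8 lower, beside 9.86% and 30.7% of all rows. The members' median log2 ratio was −0.20, beside −0.24 for all rows. The middle of the members' ratios, from the 25th to the 75th percentile, ran from −0.55 to −0.0005, beside −0.72 to 0.17 for all rows. Negative ratios were found for 28 of 38 members, where 65.2% of all rows were negative. That direction depended on scaling: with upper quartiles of the libraries set equal (a log2 scale factor of −0.32 between them), 20 of 38 were positive (52.6%, beside 52.5% of all rows) and the median was 0.10, beside 0.04 for all rows. The 6 genes past 2-fold were past it under that scaling too. In such libraries fewer cells of a type and less RNA per cell cannot be told apart.

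**Figure D1:**
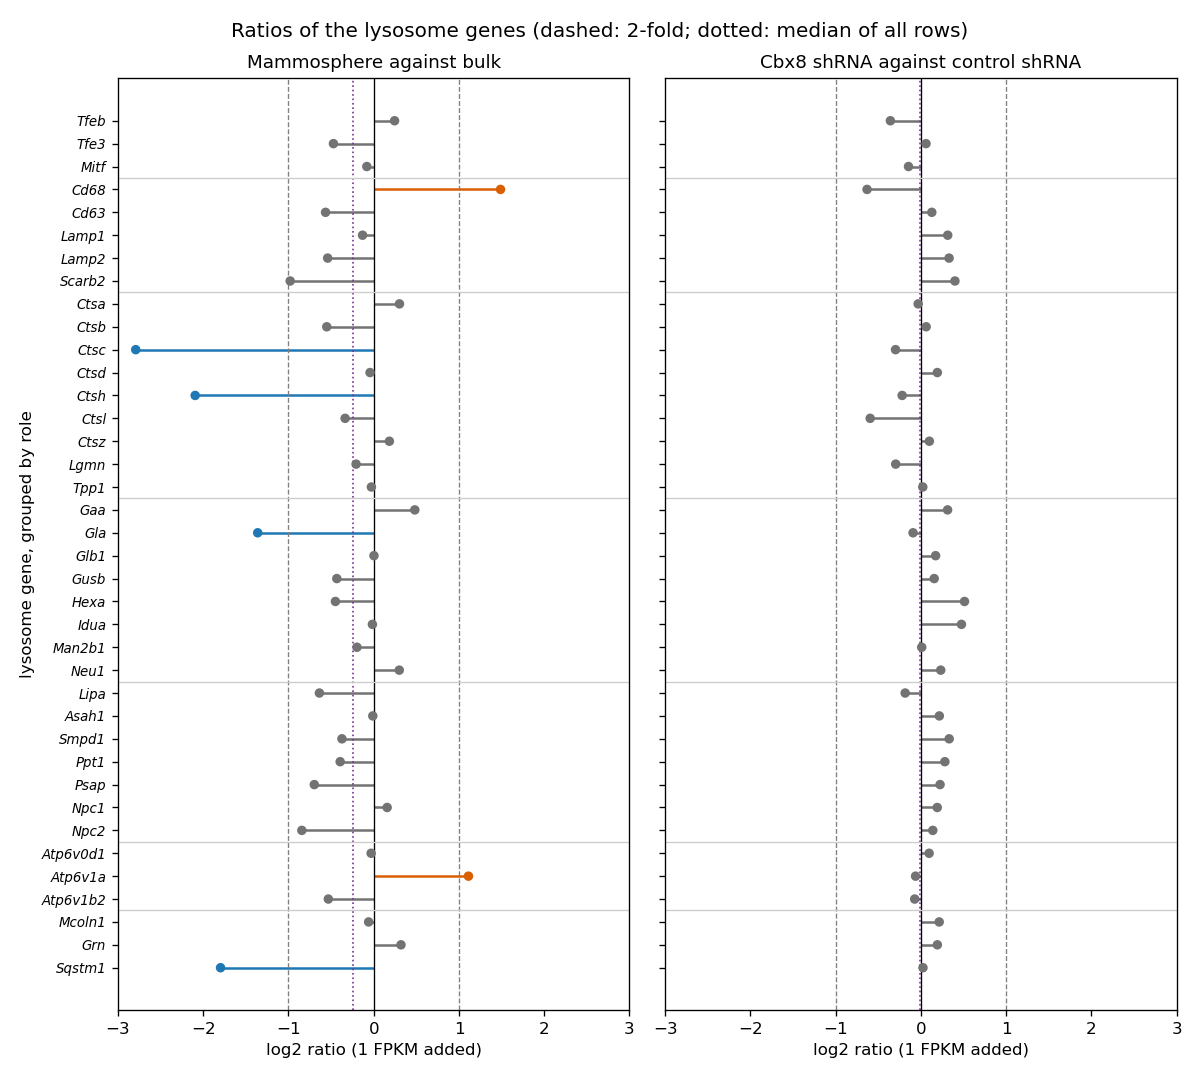
Log2 ratios (1 FPKM added) of the 38 lysosome genes, grouped by role, in mammosphere against bulk (left) and Cbx8 shRNA against control shRNA (right). Orange and blue points are 2-fold or more higher or lower (dashed lines), and the dotted line is the median of all rows. On the left Cd68 and Atp6v1a pass 2-fold upwards and Ctsc, Ctsh, Gla and Sqstm1 downwards, and on the right no gene does.

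The 3 Tfeb family genes, which drive lysosomal transcription, were low and differed little. Tfeb was at 4.75 FPKM in bulk and 5.81 FPKM in mammospheres, and Mitf at 5.26 and 4.92 FPKM. Tfe3, the most abundant of them, was at 21.6 and 15.3 FPKM. All 3 were within 2-fold, and none was tested by the authors, whose software leaves rows with few fragments untested. These are transcript levels, and the family is known to be controlled largely by where the protein sits in the cell.

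Among the 5 membrane proteins, Cd68 was the one past 2-fold, and as deposited the other 4 had negative log2 ratios. Cd68 (chromosome 11, 69477872 to 69479564 in mm9, as the tables give it) was at 35.5 FPKM in bulk and 101 FPKM in mammospheres, 2.85-fold higher as a plain ratio (log2 ratio 1.49). In the authors' deposited table this row had q = 0.0604. Of the 11630 rows, 155 (1.33%) had a log2 ratio as high. Cd63, a tetraspanin of late endosomes, was at 471 and 318 FPKM. Lamp1, a main glycoprotein of the lysosomal membrane, was at 252 and 230 FPKM, and its close relative Lamp2, which also serves chaperone-mediated autophagy, at 164 and 113 FPKM. The sign of Lamp1 depended on scaling, from −0.13 as deposited to 0.06 centred on the median row and 0.19 with upper quartiles set equal. Scarb2, which carries the enzyme glucocerebrosidase to lysosomes, was at 54.3 and 27.0 FPKM (log2 ratio −0.98), just inside the 2-fold limit. Cd68 thus lay 24th of the 38 genes by level in bulk cells and 13th in mammospheres, both orders on the length-scaled FPKM.

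The genes beside Cd68 on the chromosome did not share its difference. Eif4a1, a translation initiation factor whose row ends 873 bases from that of Cd68, was at 653 FPKM in bulk and 484 FPKM in mammospheres. On the other side, Mpdu1 was at 29.9 and 19.9 FPKM. Senp3, at 32.6 and 24.8 FPKM, and Fxr2, at 28.5 and 24.1 FPKM, also had negative log2 ratios, that of Fxr2 turning to 0.07 with upper quartiles set equal. The row shared by BC096441, Tnfsf12 and Tnfsf13 was at 6.98 and 4.44 FPKM. Sox15, Mir467f and Mir1934 were below 1 FPKM in both libraries. The sources used here do not say whether the libraries kept strand.

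The 9 proteases split into an abundant set at close to equal levels and low ones that were much lower in mammospheres. Ctsl, a cysteine cathepsin, was at 535 FPKM in bulk and 424 FPKM in mammospheres. The aspartic protease Ctsd was at 390 and 379 FPKM, Ctsz at 343 and 390 FPKM, and Ctsb at 267 and 182 FPKM. The carboxypeptidase Ctsa, which also protects beta-galactosidase and sialidase, was at 66.0 and 81.5 FPKM. The asparaginyl protease Lgmn, which matures cathepsins, was at 164 and 142 FPKM, and the tripeptidyl peptidase Tpp1 at 40.6 and 39.9 FPKM. These 7, all above 39 FPKM in both libraries, had log2 ratios between −0.55 and 0.30. In contrast Ctsc, the dipeptidyl peptidase that activates granule serine proteases of leukocytes, was at 27.7 FPKM in bulk and 3.14 FPKM in mammospheres, 8.81-fold lower as a plain ratio (log2 ratio −2.79). It was the one member with q under 0.05 in the authors' deposited table (q = 0.000216), where 10.2% of the 4045 tested rows were lower and 1.73% higher at that limit. Ctsh, an aminopeptidase, was at 3.35 and 0.0179 FPKM (log2 ratio −2.09), in a row that the authors did not test.

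Of the 8 glycosidases, 1 was lower by 2-fold or more. Gla, the alpha-galactosidase deficient in Fabry disease, was at 37.6 FPKM in bulk and 14.0 FPKM in mammospheres (log2 ratio −1.36), with q = 0.0895 in the authors' deposited table. Gaa, the glycogen-degrading alpha-glucosidase, had the highest ratio of the 8, at 27.2 and 38.4 FPKM. Glb1, the beta-galactosidase used as a senescence stain, was at 37.5 and 37.5 FPKM, in a row shared with Tmppe. Hexa, a subunit of beta-hexosaminidase, was at 63.0 and 45.9 FPKM, and the beta-glucuronidase Gusb at 57.2 and 42.1 FPKM. Man2b1, Neu1 and Idua, which trim mannose, sialic acid and iduronic acid, were all below 16 FPKM, with log2 ratios from −0.20 to 0.30.

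Lipid-handling genes were within 2-fold, and 6 of 7 had negative log2 ratios (5 of 7 under either rescaling). The largest differences were in the abundant Npc2, a soluble cholesterol carrier, at 215 FPKM in bulk and 119 FPKM in mammospheres (log2 ratio −0.84), and Psap, the precursor of the saposins that present sphingolipids to their hydrolases, at 448 and 276 FPKM (log2 ratio −0.70). Lipa, the acid lipase, was at 22.4 and 14.0 FPKM. The membrane partner of Npc2, Npc1, had the one positive ratio, at 12.9 and 14.5 FPKM. Asah1, the acid ceramidase, was at 96.0 and 95.3 FPKM. The sphingomyelinase Smpd1, at 9.83 and 7.37 FPKM, and the thioesterase Ppt1, at 49.96 and 37.8 FPKM, were slightly lower.

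The 3 proton pump subunits lay on both sides of 0. Atp6v1a, the catalytic subunit, was at 39.7 FPKM in bulk and 87.0 FPKM in mammospheres (log2 ratio 1.11), with q = 0.222 in the authors' deposited table. Its partner in the same ring, Atp6v1b2, was at 92.9 and 63.9 FPKM (log2 ratio −0.53). Atp6v0d1, of the membrane sector, was at 32.1 and 31.4 FPKM. In bulk cells Atp6v1b2 was therefore the more abundant of the ring subunits, and in mammospheres Atp6v1a was.

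Of the remaining members, Sqstm1 differed most. Sqstm1, encoding the autophagy receptor p62, had the highest level of the 38 genes in bulk cells, 919 FPKM, and was at 264 FPKM in mammospheres, 3.48-fold lower as a plain ratio (log2 ratio −1.80). In the authors' deposited table its q was 0.142. Grn, encoding progranulin, was at 257 and 321 FPKM. Mcoln1, the lysosomal calcium channel, was at 16.5 and 15.8 FPKM.

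**Figure D2:**
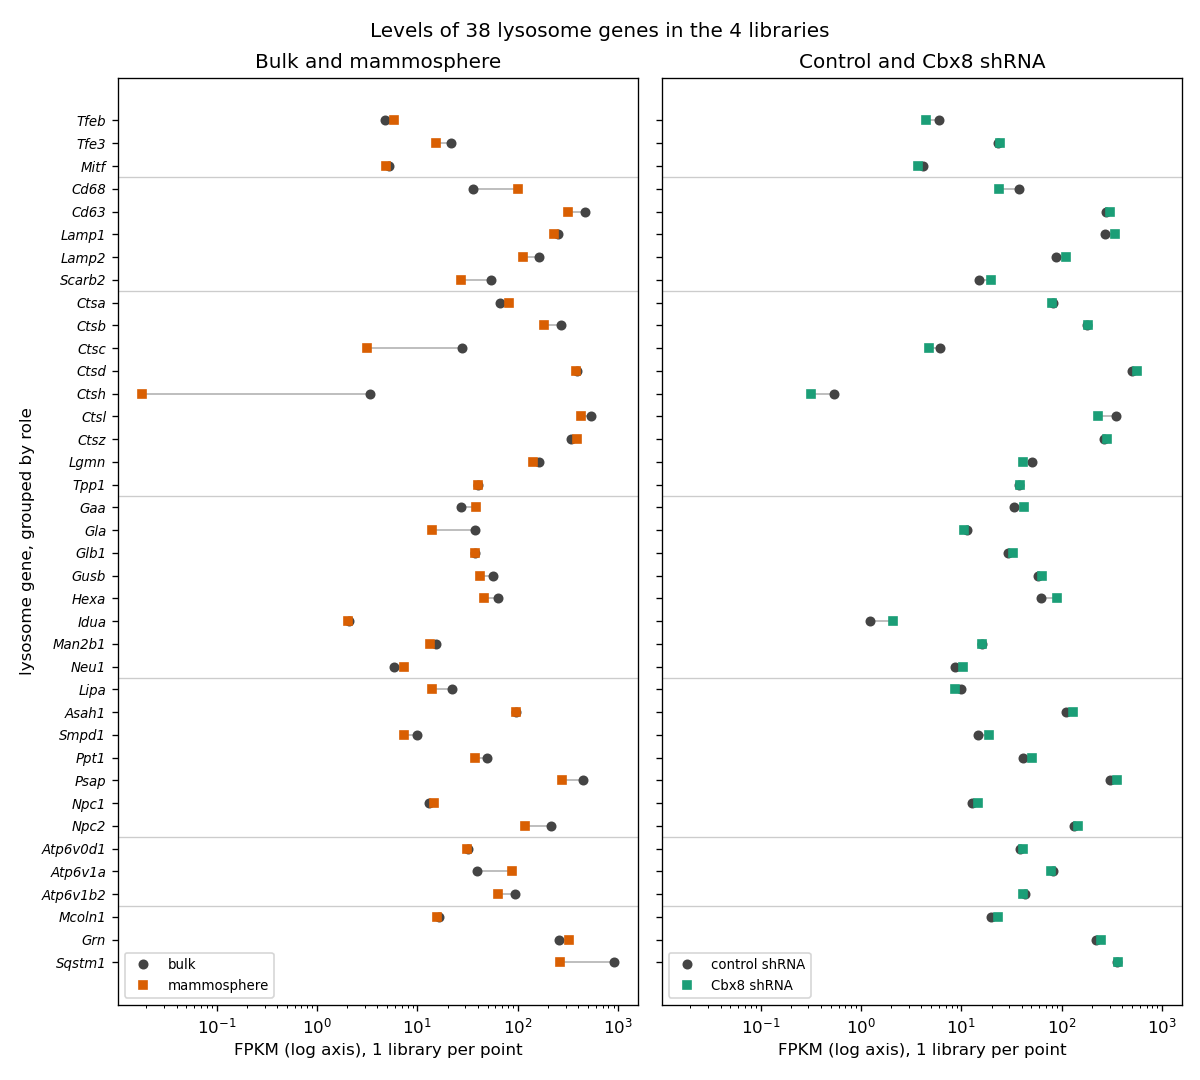
Levels in FPKM on a log axis of the 38 genes in the bulk and mammosphere libraries (left) and the control and Cbx8 shRNA libraries (right), 1 library per point, with grey lines joining each pair. The widest gaps are on the left, for Ctsh, Ctsc, Sqstm1, Cd68 and Gla, and the pairs on the right lie close together.

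As deposited, members with the CLEAR core lay on both sides of 0. Their log2 ratios were 1.11 for Atp6v1a, 0.30 for Ctsa, −0.03 for Atp6v0d1, −0.04 for Ctsd, −0.06 for Mcoln1 and −1.36 for Gla. The median of these 6 was −0.04, and that of the 27 other members with a promoter window was −0.34. Either rescaling (centring on the median row, or equal upper quartiles) left 5 of the 6 positive and Gla negative, with a median of 0.15 or 0.28. Of these 5, Atp6v0d1, Ctsd and Mcoln1 were slightly negative as deposited and were turned positive by the shift itself. Among all rows, 46.7% were positive when centred (median −0.05) and 52.5% with equal upper quartiles (median 0.04).

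Markers of macrophages were compared in the same libraries because Cd68 and several cathepsins are abundant in those cells. Of 26 macrophage and myeloid markers, 24 reached 1 FPKM in either library, and 23 of these were at least 2-fold lower in mammospheres (median log2 ratio −3.18). Their summed level was 434 FPKM in bulk and 8.66 FPKM in mammospheres, of which Cd14 made up 7.24 FPKM. In mammospheres 12 of the 26 were listed at 0, among them Tyrobp (23.7 FPKM in bulk), C1qa (22.4), C1qb (26.4), C1qc (19.1), Emr1 (2.08) and Spi1 (5.87). Lyz2, the macrophage lysozyme, was at 122 and 0.0737 FPKM. Cd68 was at 101 FPKM in the same mammosphere library, and which cells its transcripts came from was not tested. The cathepsin Ctss, in both this list and that of other lysosomal genes, had 50.8 FPKM in bulk cells and a listed level of 0 in mammospheres.

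Most markers of other cell types were lower in mammospheres too. Of 12 other leukocyte markers that reached 1 FPKM, 11 were lower in mammospheres by 2-fold or more, as were 9 of 10 fibroblast markers, 3 of 3 endothelial ones and 7 of 9 epithelial ones, beside the 17.2% of all rows. The endothelial list held 7 markers, and the 3 counted reached 1 FPKM in bulk alone. Their count was therefore partly set by that minimum. Centred on the median row, 5 of the 9 epithelial markers were lower. Summed levels were 365 and 10.5 FPKM for leukocyte markers and 472 and 4.26 FPKM for fibroblast markers. The exceptions with slightly positive ratios were the leukocyte marker S100a8, at 9.15 and 9.98 FPKM and so most of its list's sum in mammospheres, and the epithelial Krt19, at 9.08 and 9.65 FPKM. Ctsc and Ctsh had lower levels beside these markers, and the markers' part in those differences was not tested.

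**Figure D3:**
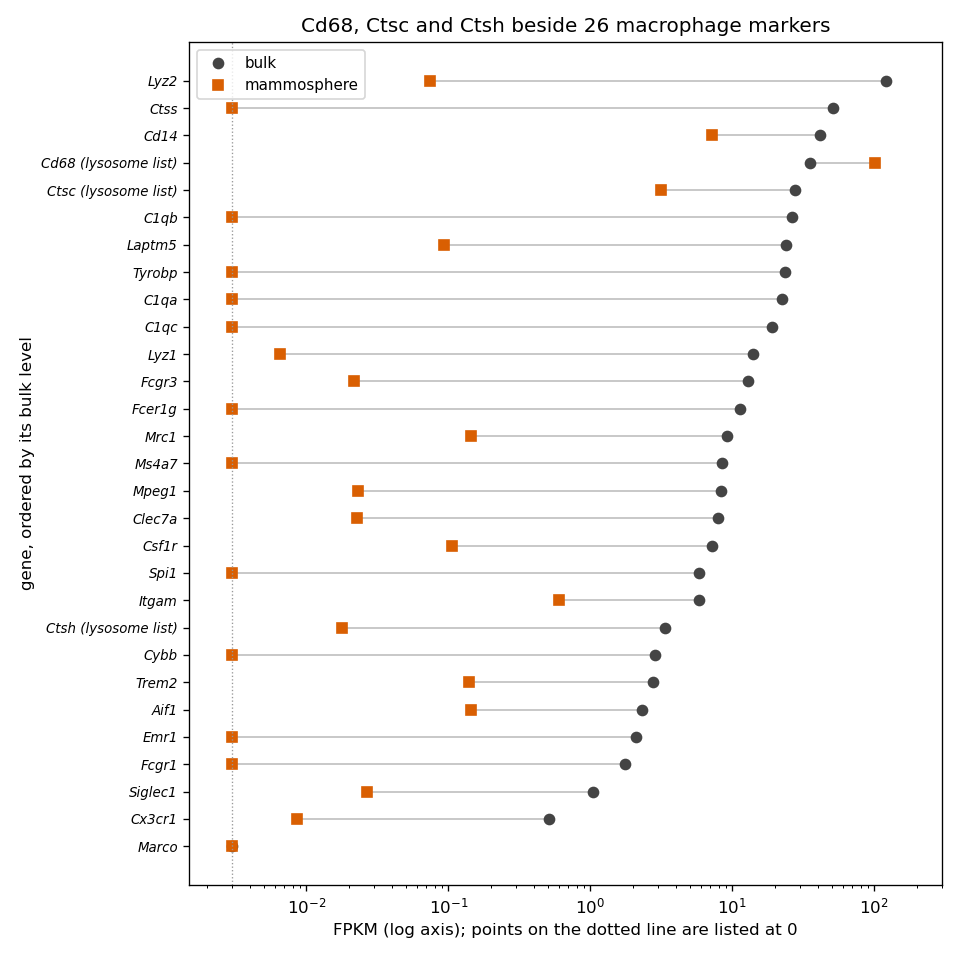
FPKM on a log axis in the bulk (circles) and mammosphere (squares) libraries for Cd68, Ctsc and Ctsh and for 26 macrophage markers, ordered by bulk level. Points on the dotted line are listed at 0. Cd68 is the one gene whose mammosphere point lies to the right of its bulk point.

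Lists of related genes were counted in the same way in the mammosphere comparison. Of 42 further lysosomal genes, 0 were higher and 7 were at least 2-fold lower (16.7%, beside 17.2% of all rows), with a median log2 ratio of −0.35, beside −0.24 for all rows. These included, beside Ctss, the cathepsin Ctso at 16.0 FPKM in bulk and 3.15 FPKM in mammospheres and the ganglioside activator Gm2a at 15.0 and 4.63 FPKM. Of 14 other proton pump subunits, 1 was higher (7.14%, beside 3.55% of all rows) and none lower (median −0.40). That one was Atp6v0a1, a form of the membrane subunit enriched in neurons, at 10.7 and 22.7 FPKM. Among 15 measured genes that tag enzymes with mannose 6-phosphate or carry them to lysosomes, 1 was higher (6.67%) and none lower (median 0.13). It was Igf2r, the large mannose 6-phosphate receptor, at 47.9 and 108 FPKM, whereas the small receptor M6pr was at 103 and 66.1 FPKM.

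Autophagy genes, the route that Sqstm1 serves, included 3 of 27 at least 2-fold lower (11.1%, beside 17.2% of all rows) and 0 higher, with a median of −0.32 beside −0.24 for all rows. Map1lc3a, which coats autophagosome membranes, was at 110 FPKM in bulk and 24.7 FPKM in mammospheres, with q = 0.00134 in the authors' deposited table. Its relative Gabarapl1 was at 138 and 62.2 FPKM, and the receptor Tax1bp1 at 80.0 and 34.9 FPKM. With ratios centred on the median row, 1 of the 27 stayed past 2-fold. Among 16 genes of mTORC1 control, which acts on Tfeb proteins, Rragd was higher (0.203 and 5.93 FPKM) and Fnip1 lower (14.2 and 6.56 FPKM), neither of them tested by the authors. Each is 6.25% of that list, beside 3.55% of all rows higher and 17.2% lower. Fnip1, at a log2 ratio of −1.01, was within 2-fold under either rescaling. The median of these 16 was 0.0007 as deposited and 0.19 after centring. Rragd encodes a small GTPase that recruits mTORC1 and Tfeb proteins to the lysosome.

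The Cbx8 shRNA and control shRNA libraries differed little in lysosome genes, and no member was 2-fold higher or lower. Among all 10685 rows with at least 1 FPKM in either library, 0.299% were higher and 0.449% lower by 2-fold or more. Ctsh, at 0.537 and 0.320 FPKM, stayed under 1 FPKM and out of the counts. Of the other 37 genes, 26 (70.3%) had positive log2 ratios, where 48.8% of all rows did, or 50.4% of the rows with at least 10 FPKM. The members' median log2 ratio was 0.13, beside −0.006 for all rows, and their middle ratios ran from −0.06 to 0.22, beside −0.14 to 0.14 for all rows. With upper quartiles set equal, 23 of 37 (62.2%) were positive, beside 41.6% of all rows. The median was then 0.09, beside −0.04 for all rows. The difference is small, and without replicates its size cannot be set against the spread between cultures. In the authors' deposited table every member had q = 0.999 in this comparison, where 0.128% of rows were higher and 0.0769% lower with q under 0.05.

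With 1 FPKM added, Cd68 had the lowest log2 ratio of the 38 genes here, the reverse of its place in the mammosphere comparison. It was at 37.6 FPKM in the control library and 23.9 FPKM in the Cbx8 shRNA library, a plain ratio of 1.57-fold in favour of the control (log2 ratio −0.63), and 188 of 10685 rows (1.76%) had a ratio as low. In the authors' deposited table p was 0.0583 before adjustment. The other membrane proteins had positive ratios. Scarb2 was at 14.9 and 20.0 FPKM (log2 ratio 0.40), Lamp2 at 87.4 and 110 FPKM (0.33 on the same scale), Lamp1 at 272 and 338 FPKM (0.31) and Cd63 at 275 and 300.3 FPKM (0.13). Beside Cd68 on the chromosome, Eif4a1 was at 101 and 104 FPKM and Mpdu1 at 37.1 and 28.7 FPKM. Of the 26 macrophage markers, 2 had a value in this table: Cd14 at 27.1 FPKM in the control and 41.0 FPKM in the knockdown library, and Itgam at 0.278 and 0.123 FPKM. The other 24 had no row in this table, which holds tested rows alone, so their levels there are unknown.

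Ctsl was the other member past 1.5-fold, at 344 FPKM in the control and 228 FPKM in the Cbx8 shRNA library (log2 ratio −0.59). With 5 FPKM added in place of 1, Ctsl had the lower ratio, −0.59 against −0.56 for Cd68. Of all rows, 2.18% were at least 1.5-fold lower and 2.1% at least 1.5-fold higher, a side on which there was no member with 1 FPKM added (with 0.1 FPKM added, Idua was there). Other proteases lay on both sides. Lgmn was at 50.4 and 40.9 FPKM and Ctsc at 6.10 and 4.78 FPKM, whereas Ctsd, the most abundant of the 38 genes in both libraries, was at 496 and 567 FPKM. Ctsb (177 and 185 FPKM), Ctsz (263 and 281), Ctsa (81.4 and 79.6) and Tpp1 (37.5 and 38.1) had log2 ratios from −0.03 to 0.10.

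Glycosidases and lipid-handling genes were mostly slightly higher in the Cbx8 shRNA library. Of 8 glycosidases, 7 had positive log2 ratios (median 0.20), or 6 with upper quartiles set equal. With 1 FPKM added, Hexa had the highest ratio of the 38 genes, at 62.0 FPKM in the control and 88.8 FPKM in the knockdown library (log2 ratio 0.51), short of 1.5-fold on that scale. Idua, at 1.23 and 2.11 FPKM, was above it as a plain ratio (1.71-fold, against 1.43-fold for Hexa). Gaa was at 33.7 and 42.1 FPKM, Gusb at 57.7 and 64.4 FPKM and Glb1 at 28.9 and 32.7 FPKM. Neu1 was at 8.71 and 10.4 FPKM, Man2b1 at 15.9 and 16.0 FPKM and Gla at 11.5 and 10.7 FPKM. Lipid-handling genes were positive in 6 of 7 cases (median 0.22). Smpd1 was at 14.8 and 18.8 FPKM, Ppt1 at 41.0 and 50.05 FPKM, Asah1 at 111 and 129 FPKM and Psap at 306 and 358 FPKM. Npc1 was at 12.7 and 14.6 FPKM and Npc2 at 133 and 147 FPKM, whereas Lipa was at 9.96 and 8.65 FPKM.

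Regulators and pump subunits on the list showed no such lean. Tfeb was at 6.01 FPKM in the control and 4.47 FPKM in the Cbx8 shRNA library (log2 ratio −0.36), Mitf at 4.18 and 3.68 FPKM and Tfe3 at 23.2 and 24.2 FPKM. Atp6v1a, which was higher in mammospheres, was at 81.6 and 78.1 FPKM. Atp6v1b2 was at 42.9 and 40.8 FPKM and Atp6v0d1 at 38.6 and 41.3 FPKM. Sqstm1 was nearly equal at 357 and 363 FPKM, Grn was at 218 and 249 FPKM and Mcoln1 at 19.7 and 23.0 FPKM. The 6 members with the CLEAR core had a median log2 ratio of 0.03, and the 27 others with a window 0.14.

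The wider lists of lysosome and autophagy genes had medians between −0.01 and 0.20 in the knockdown comparison, and none of their genes reached 2-fold. Of 40 other lysosomal genes, 28 had positive log2 ratios (median 0.12), led by Galc, the galactosylceramidase, at 7.40 FPKM in the control and 12.9 FPKM in the knockdown library. All 14 of the other proton pump subunits were positive, with log2 ratios from 0.05 to 0.39 (median 0.20), also with upper quartiles set equal. Of all rows, 48.8% were positive as deposited and 41.6% with upper quartiles set equal. Atp6ap1, an accessory subunit, was at 75.2 and 99.0 FPKM, and Atp6v0a2 at 23.6 and 30.8 FPKM. Of 27 autophagy genes, 19 were positive (median 0.08). The enzyme sorting list (9 of 15 positive, median 0.02, or −0.01 with upper quartiles set equal) and the mTORC1 control list (7 of 15, median −0.01) lay near 0. In the sorting list Igf2r, higher in mammospheres, was at 57.5 and 43.7 FPKM.

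**Figure D4:**
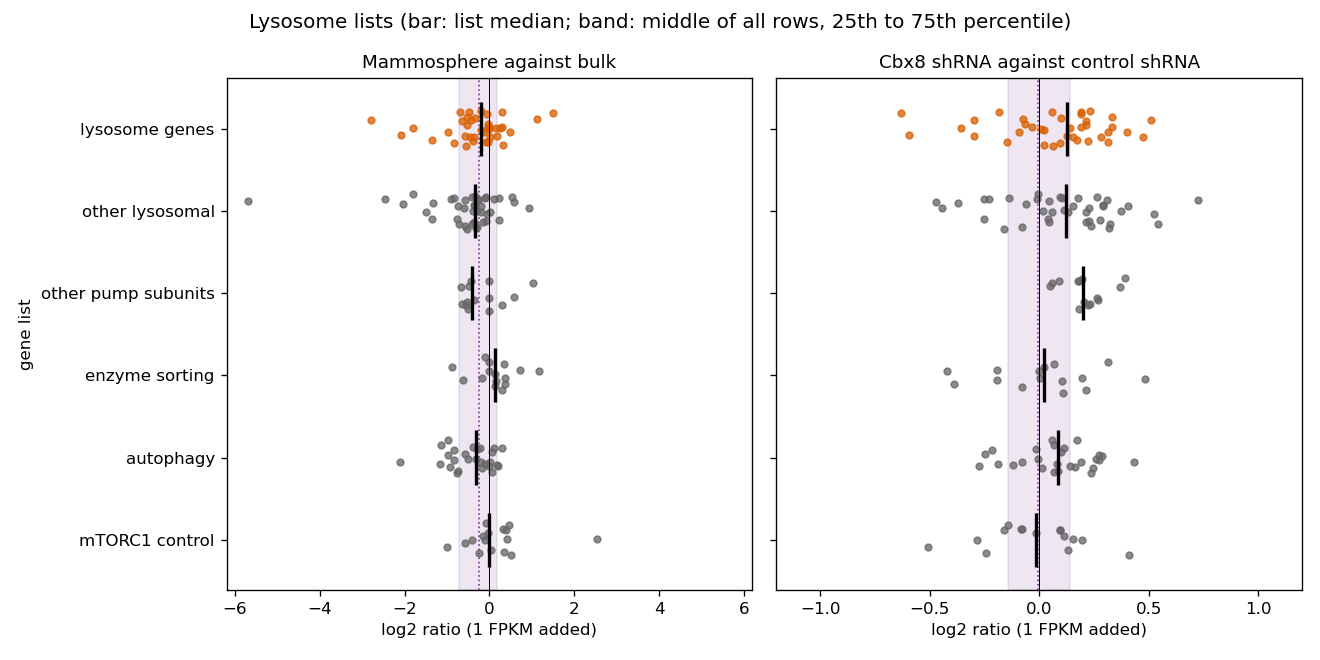
Log2 ratios (1 FPKM added) of the lysosome genes and of 5 related lists in mammosphere against bulk (left) and Cbx8 shRNA against control shRNA (right, on a narrower axis). Each point is a gene, black bars are list medians, and the shaded band spans the 25th to 75th percentile of all rows. On the right all 14 other pump subunits lie above 0, beside 48.8% of all rows.

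Set side by side, the comparisons share no library, and the members' ratios in one did not follow those in the other. Across the 38 genes, which share the 4 libraries and are not independent replicates, Pearson's r was 0.03 and Spearman's rho 0.06. Without Cd68 they were 0.24 and 0.15. Signs were opposite for 24 of the 38: 20 genes were negative in mammospheres and positive with the Cbx8 hairpin, and 4, Cd68, Ctsa, Atp6v1a and Tfeb, were the other way round. Opposite signs were found for 18 of 38 centred on the median row and 19 with upper quartiles set equal, so the count depends on scaling. As deposited, 65.2% of all rows were negative in mammospheres and 48.8% were positive with the Cbx8 hairpin. The share of all rows with opposite signs was not computed, so the members' count has no background beside it.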

How the data were processed

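Per the labels, polyadenylated RNA of RIN 8 or higher was sequenced as single-end reads of 100 nt. The submitters' processing notes name the build mm9, Cuffdiff 0.0.7, Cufflinks 1.3.0, TopHat 1.4.0 and FastQC 0.10.0. The authors deposited FPKM per gene in 2 Cuffdiff tables, with p-values and q-values that the authors computed from 1 library a side. The files hold no counts, so depth and counting precision are unknown.

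From these, log2((FPKM + 1)/(FPKM + 1)) was computed within each table (Python 3.11.15, pandas 2.3.3). Ratios were counted at 2-fold among rows with at least 1 FPKM in either library. The counting was tried on simulated data with planted changes well past 2-fold and little noise. That trial does not bear on calls near 2-fold or on recovery in low rows. With 1 library a group no test was run. The members and lists were chosen with earlier results of these data known. Symbols were matched exactly, then, unlike first planned, by unique RefSeq synonyms on the same chromosome (Tfeb, Tfe3, Lamtor1, Spi1). Where several rows held a symbol, the one with the highest mean FPKM was used.

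All members are named, as are Cbx8, genes within 20 kb of Cd68, and up to 4 genes a list with the largest ratio and at least 5 FPKM. Myc, Epcam, Cdh1, Emr1, C1qa, C1qc, Spi1, Itgam, S100a8 and Krt19 were named after their values were seen. Promoter letters come from RefSeq (GRCm38.p6), and its coordinates were not mixed with mm9. Protein sequences were not used here, and 1 gene that the naming rule picks is not reported here. Alternatives were pseudocounts of 0.1 and 5 FPKM, other minimum levels, 2 rescalings, tested rows only, summed rows, and limits of 1.5-fold, 4-fold or the authors' q. Current symbols only, rows with at least 10 FPKM, the members without Cd68, and counts of signs under rescaling were chosen after seeing the data.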

Additional observations from a re-analysis of the deposited data

How the results depend on the processing

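Of 66 alternative values for the members' counts and medians, 57 kept the reported value within the limits set (1.5 times for a count, 0.1 on the log2 scale for a median). Some of the 57 could not have differed. Each member had 1 row per table, so summing rows changed nothing. In mammosphere against bulk all 38 members reached 1 FPKM, so dropping that minimum changed nothing either. In mammosphere against bulk, the median log2 ratio of −0.20 was −0.016 centred on the median row, 0.10 with upper quartiles set equal, a change of sign, and −0.34 over the 27 members that the authors tested. The 4 genes lower by 2-fold became 8 at 1.5-fold, 2 at 4-fold and 1 at the authors' q under 0.05, and the 2 higher ones became 0 at 4-fold and 0 at that q. In the knockdown comparison, 2 genes were lower at 1.5-fold, against 0 at 2-fold. Among 585 alternative ratios of single members, no called one changed sign, but that outcome was fixed in advance. Only the 2 rescalings could change a sign, and both shifted ratios by less than the 2-fold limit of a call. Signs of uncalled members did change. In mammosphere against bulk 8 members turned positive when centred and 10 with upper quartiles set equal. In the knockdown comparison 3 turned negative with upper quartiles set equal. Scarb2 passed 2-fold at a pseudocount of 0.1 FPKM (log2 ratio −1.003) and Ctsh missed it at 5 FPKM (−0.73). No paired analysis was possible because each group had 1 library and the labels give no replicate numbers, and for the same reason no replicate could be left out. FPKM without counts gives no depth, so low genes such as Ctsh, Idua and Tfeb carry an error of unknown size.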

Other observations

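Atp6v0c, the ring subunit of the proton pump, had very different levels in the separately normalised tables: 331 FPKM in bulk and 233 FPKM in mammospheres, but 2.40 FPKM in the control and 2.54 FPKM in the Cbx8 shRNA library. Both rows are shared with Atp6v0c-ps2, and why their levels differ was not tested, so the level of Atp6v0c is uncertain. The ratio of Atp6v0c in the knockdown comparison, 0.06 on the log2 scale, counts among the 14 positive pump subunits.

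The basal keratin Krt14 was the one epithelial marker past 2-fold in the knockdown comparison, at 1.09 FPKM in the control and 10.5 FPKM in the Cbx8 shRNA library, with q = 0.0325 in the authors' deposited table.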
